A study of Mus musculus with 12 samples.

Results

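The genes described here are 9 genes that encode proteins of the epithelial tight junction and Rab25, a small GTPase of the Rab11 family. They were picked by symbol, with no measured value in the rule but with earlier results of these data known. They make up 10 of the 78317 genes in the deposited table. They are Cldn3 (ENSMUSG00000070473), Cldn4 (ENSMUSG00000047501), Cldn7 (ENSMUSG00000018569), Cldn1 (ENSMUSG00000022512), Ocln (ENSMUSG00000021638), Marveld2 (ENSMUSG00000021636), Lsr (ENSMUSG00000001247), F11r (ENSMUSG00000038235), Tjp1 (ENSMUSG00000030516) and Rab25 (ENSMUSG00000008601). Each symbol matched 1 row, and 9 of the 10 had enough counts to be tested; Cldn1 did not.

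The cells were 4T1, a mouse mammary carcinoma line used as a model of triple-negative breast cancer. There were 4 groups of 3 biological replicates: PBRM1 KO cells given 5 ng/ml TGFβ1 for 4 days, untreated PBRM1 KO cells, control cells given the same TGFβ1 treatment, and untreated control cells. PBRM1 is a subunit of the PBAF chromatin remodelling complex, and TGFβ1 is a cytokine that drives epithelial cells towards a mesenchymal state. Library names carry sgPB for the KO and sgCt for the control cells; whether either is 1 clone or a pool is not given in the sources used here. Titles of the untreated libraries carry the tag 0h, and the labels do not say whether those cells were harvested together with the treated ones. Treated and untreated groups may therefore also differ in time in culture, which was not tested. Differences with TGFβ1 below are differences between these groups.

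Tight junctions seal the space between neighbouring epithelial cells near the apical surface. Claudins form the paracellular strands, occludin and tricellulin (Ocln and Marveld2) belong to the MARVEL family of membrane proteins, angulins such as Lsr recruit tricellulin to the corners where 3 cells meet, and F11r (JAM-A) is an immunoglobulin-type adhesion protein. Tjp1 (ZO-1) is the scaffold under the membrane that ties these proteins to actin. Rab25 is found mainly in epithelia and returns membrane proteins from recycling endosomes to the cell surface. During an epithelial to mesenchymal transition, repressors of the SNAI and ZEB families bind E-box motifs in the promoters of several junction genes.

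Promoter windows of the 5 genes that passed the test with TGFβ1 in PBRM1 KO cells are shown so that the sequences of those that fell (Rab25 and Ocln) can be read beside those that rose (Cldn4, Lsr and F11r). Each window runs from 250 bases before to 50 bases after a transcript start of RefSeq, on the gene's own strand, in the C57BL/6J reference assembly GRCm38.p6, which is neither the build used for counting (mm39) nor the genome of 4T1. Capitals mark every match to CACCTG (an E-box bound by SNAI and ZEB factors), TGANTCA (AP-1), AACNNGTT (bound by GRHL factors) and the SMAD palindrome GTCTAGAC, on either strand. The motifs were picked with these results and windows in view.
Rab25, chr3:88548230-88548529, minus strand: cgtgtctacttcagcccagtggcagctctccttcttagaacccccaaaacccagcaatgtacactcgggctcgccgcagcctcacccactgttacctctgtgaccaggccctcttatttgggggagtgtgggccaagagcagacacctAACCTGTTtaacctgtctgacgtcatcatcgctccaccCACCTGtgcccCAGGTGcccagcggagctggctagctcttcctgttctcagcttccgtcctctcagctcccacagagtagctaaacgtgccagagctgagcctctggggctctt
Ocln, chr13:100552449-100552748, minus strand: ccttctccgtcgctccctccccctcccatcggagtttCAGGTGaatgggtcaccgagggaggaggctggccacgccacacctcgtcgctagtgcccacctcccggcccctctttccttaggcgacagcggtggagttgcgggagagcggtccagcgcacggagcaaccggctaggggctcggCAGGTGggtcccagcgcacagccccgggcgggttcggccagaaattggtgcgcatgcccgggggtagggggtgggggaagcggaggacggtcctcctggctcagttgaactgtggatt
Cldn4, chr5:134946885-134947184, minus strand: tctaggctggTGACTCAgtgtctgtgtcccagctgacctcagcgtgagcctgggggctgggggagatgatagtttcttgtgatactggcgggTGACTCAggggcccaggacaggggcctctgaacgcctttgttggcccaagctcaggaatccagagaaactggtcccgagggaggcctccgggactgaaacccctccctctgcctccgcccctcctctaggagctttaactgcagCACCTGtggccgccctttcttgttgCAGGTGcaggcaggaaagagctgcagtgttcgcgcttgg
Lsr, chr7:30973420-30973719, minus strand: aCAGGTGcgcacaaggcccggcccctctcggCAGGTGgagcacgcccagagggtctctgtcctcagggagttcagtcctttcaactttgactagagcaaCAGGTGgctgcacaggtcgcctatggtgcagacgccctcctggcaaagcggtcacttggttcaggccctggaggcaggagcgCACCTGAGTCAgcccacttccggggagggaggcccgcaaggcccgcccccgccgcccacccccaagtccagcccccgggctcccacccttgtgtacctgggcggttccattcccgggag
F11r, chr1:171437311-171437610, plus strand: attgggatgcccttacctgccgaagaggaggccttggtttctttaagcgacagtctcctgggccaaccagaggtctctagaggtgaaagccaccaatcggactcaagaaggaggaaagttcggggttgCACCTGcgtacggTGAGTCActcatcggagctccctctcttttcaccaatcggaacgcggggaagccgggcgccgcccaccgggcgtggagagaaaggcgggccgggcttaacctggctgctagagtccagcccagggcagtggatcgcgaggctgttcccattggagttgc

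Counted from the transcript start at 0, Rab25 had its first E-box base at −64 and −53 and the single GRHL match among the 10 genes at −102. Ocln had E-boxes at −213 and −68 of the window shown, and the same E-box at −213 lies in the window of a second annotated start. Cldn4 had AP-1 matches at −240 and −158 and E-boxes at −14 and 11. In Lsr 4 E-boxes were found, of which the one at −69 shares bases with the AP-1 match at −65. F11r had an E-box at −122 and an AP-1 match at −109. Over all 10 genes, 13 windows were available, and 8 genes (Cldn3, Cldn4, Cldn7, F11r, Lsr, Marveld2, Ocln and Rab25) had an E-box in at least 1 window. By window, 10 of the 13 had an E-box, against 20.2% of all 32851 RefSeq windows of 300 bases. Windows of the same gene can overlap and share a match, as in Ocln and Marveld2, so such an E-box counts in more than 1 window. AP-1 matches were found in 3 of the 13 windows (Cldn4, F11r and Lsr), against 7.81% of all windows. GRHL was found in 1 (Rab25), against 4.2%, and the SMAD palindrome in 0, against 0.213%. These are matches of letters in a window and say nothing of binding.

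Depth was 9265693 to 11250850 UMI-deduplicated counts per library, with 22908 to 24402 genes detected. Ccn2, an induced target of TGFβ1 signalling, was higher by log2 2.64 ± 0.27 in PBRM1 KO cells and by 2.49 ± 0.27 in control cells with TGFβ1. Pbrm1 itself had 222 to 274 CPM (counts scaled to the library total) in TGFβ1-treated KO cells and 207 to 245 CPM in untreated KO cells, against 276 to 292 and 258 to 328 CPM in the matching control cells, and did not pass the test (log2 −0.33 ± 0.10 untreated, adjusted p = 0.349). The libraries read the 3′ ends of transcripts, so Pbrm1 tags outside the edited site do not check the knockout. All 5 epithelial markers (Epcam, Krt8, Krt18, Krt19 and Cdh1) were detected, with a summed level of 1893 to 1961 CPM in TGFβ1-treated KO, 2191 to 2349.7 in untreated KO, 1623 to 1820.1 in TGFβ1-treated control and 2304 to 2401 in untreated control libraries. The 4 endothelial markers summed to at most 1.28 CPM and the 6 leukocyte markers to at most 8.05 CPM in any library. The 7 fibroblast markers summed to 29.5 to 65.1 CPM in TGFβ1-treated KO, 28.4 to 39.2 in untreated KO, 34.1 to 109 in TGFβ1-treated control and 35.3 to 50.0 CPM in untreated control libraries. Of these 7, 6 were tested; with TGFβ1 all 6 were fitted above 0 in control cells (median log2 0.49, none called) and 4 in KO cells, where 1 was called. That was Pdgfrb, a growth factor receptor, with 8.40, 6.17 and 1.34 CPM in TGFβ1-treated KO cells, against 0.356, 0.091 and 0 CPM in untreated KO cells (adjusted p = 0.00529). In control cells Pdgfrb was at log2 2.37 ± 0.90 with TGFβ1 (adjusted p = 0.12). The part of these markers in the results on tight junction genes was not tested.

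Replicate 3 of both TGFβ1-treated groups stood apart from replicates 1 and 2 for several of these genes. Its Ccn2 level was 248 CPM in KO and 309 CPM in control cells, against 457 to 595 CPM in the other 4 treated libraries. Results that change without these 2 libraries are given both ways.

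TGFβ1 did not move the tight junction genes in 1 direction. Rab25 and Ocln fell in both genotypes, Lsr rose in both, Marveld2 fell in control cells, and Cldn4 and F11r rose in PBRM1 KO cells. Cldn3, Cldn7 and Tjp1 did not pass in either genotype. A gene is called here when its Benjamini-Hochberg adjusted p, from edgeR's quasi-likelihood test over 14012 genes, is below 0.05. In PBRM1 KO cells 3 members were called higher and 2 lower of 9 tested, where 7.65% of all tested genes were called higher and 3.72% lower (1593 genes, and 2780 with the replicate number as a block, under which the calls of the 9 were the same). In control cells 1 was called higher and 3 lower, against 5.89% and 2.91% of all genes. The median log2 difference of the 9 was 0.16 in KO and −0.07 in control cells, and that of all genes was 0 in KO and 0.002 in control cells. In bulk RNA, fewer cells that express a gene and less RNA per cell cannot be told apart.

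**Figure D1:**
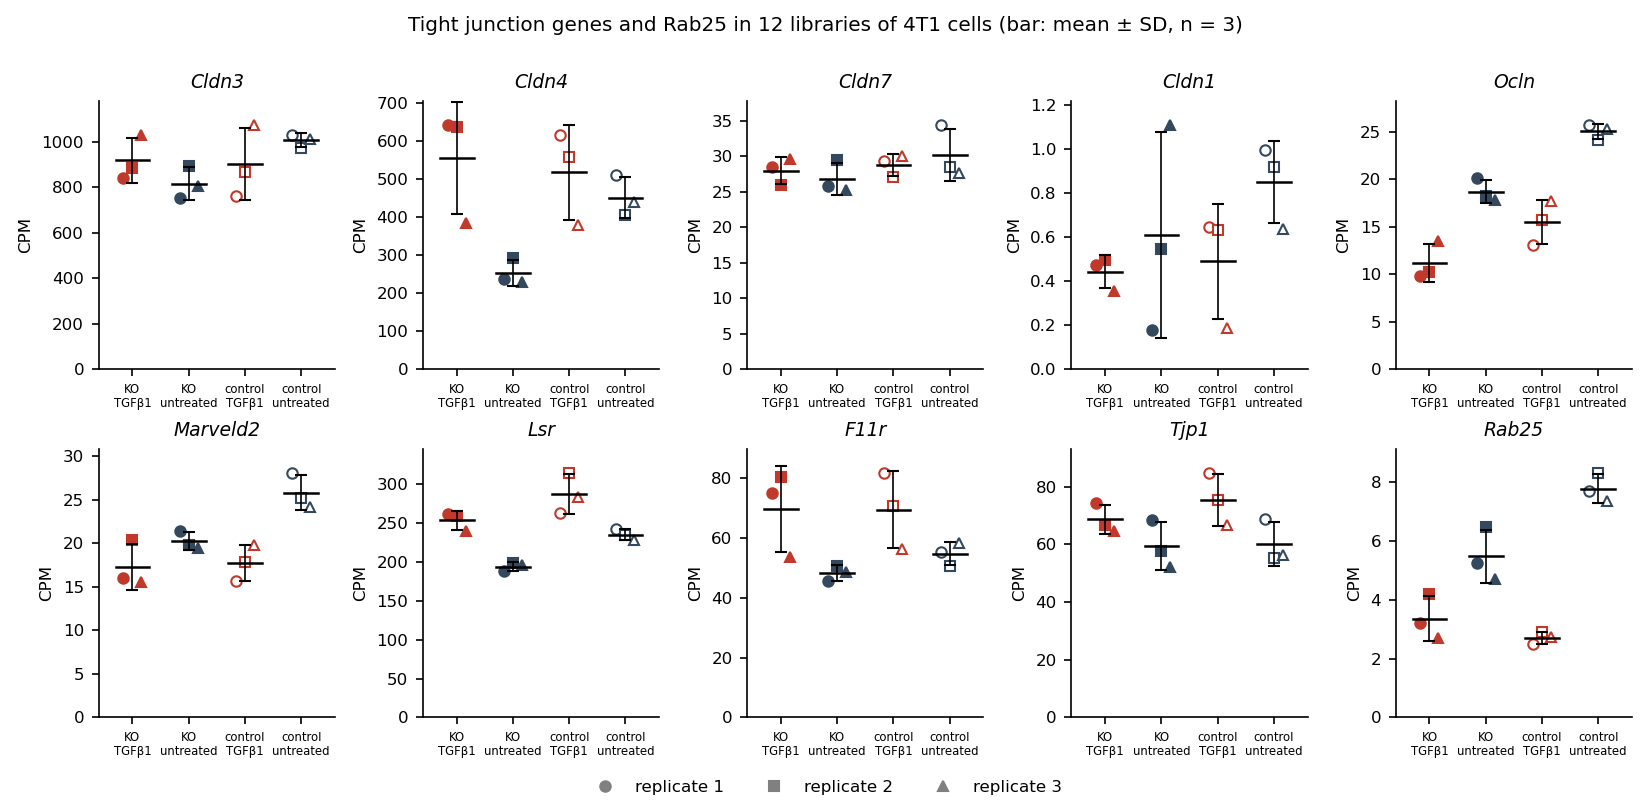
CPM of the 10 genes in the 12 libraries (vertical axes, linear, from 0; filled symbols PBRM1 KO, open symbols control; red TGFβ1, dark untreated; shape gives the replicate). Horizontal bars are group means with SD (n = 3); Rab25 and Ocln lie lower in every treated library than in any untreated library of the same genotype, and triangles (replicate 3) of Cldn4 and F11r lie below the other treated libraries.

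Among the claudins, Cldn4, a claudin that limits paracellular ion flow in many epithelia, gave the largest difference in KO cells of the 9 genes tested. It had 641, 636 and 384 CPM in TGFβ1-treated KO cells, against 238, 291 and 229 CPM in untreated KO cells. The groups did not overlap, and the treated replicate 3 was the lowest of its group. Cldn4 rose to 217% of its untreated level (log2 1.12 ± 0.20, adjusted p = 0.00317). In control cells it had 616, 557 and 378 CPM with TGFβ1, against 510, 404 and 439 CPM untreated, with groups that overlapped through replicate 3 (log2 0.20 ± 0.19, adjusted p = 0.571). Without both TGFβ1 replicate 3 libraries Cldn4 passed in control cells too (log2 0.37, adjusted p = 0.0215) and stood at log2 1.31 in KO cells. The authors' counts of Cldn4 were fractional in 10 of 12 libraries, with fractional parts that summed to 0.0086% of its counts.

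Cldn3, a sealing claudin, had 840, 884 and 1027 CPM in TGFβ1-treated KO cells, against 751, 892 and 803 CPM untreated. In control cells it had 763, 867 and 1072 CPM with TGFβ1, against 1031, 971 and 1013 CPM untreated. Replicate 3 was the highest treated library in both genotypes, and treated and untreated ranges overlapped in both (adjusted p = 0.435 in KO and 0.459 in control cells). Without the replicate 3 libraries Cldn3 was lower in control cells (log2 −0.31, adjusted p = 0.0175) and was not called in KO cells (log2 0.06, adjusted p = 0.679). Cldn7, a claudin found in junctions and along the lateral membrane, varied little, at 25.9 to 29.6 CPM in TGFβ1-treated KO, 25.2 to 29.4 in untreated KO, 27.0 to 30.0 in TGFβ1-treated control and 27.6 to 34.4 CPM in untreated control libraries. Its log2 difference with TGFβ1 was 0.05 ± 0.11 in KO and −0.07 ± 0.11 in control cells. Cldn1, a claudin of the skin barrier and many other epithelia, had 2 to 12 counts per library (0.178 to 1.11 CPM), too few for a test, and its ranges overlapped between treated and untreated cells of each genotype and between genotypes at each treatment.

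Ocln, the occludin gene, was lower in every TGFβ1-treated library than in any untreated library of its genotype. It had 9.81, 10.3 and 13.5 CPM in TGFβ1-treated KO cells, against 20.1, 18.2 and 17.8 CPM in untreated KO cells. In control cells the values were 13.0, 15.6 and 17.6 CPM with TGFβ1, against 25.7, 24.1 and 25.3 CPM untreated. Ocln fell to 59.6% of its untreated level in KO cells (log2 −0.75 ± 0.15, adjusted p = 0.0062) and to 61.7% in control cells (log2 −0.70 ± 0.14, adjusted p = 0.00993). Both calls held in all 23 alternative settings.

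Marveld2, which encodes tricellulin, had 15.9, 20.3 and 15.5 CPM in TGFβ1-treated KO cells, against 21.4, 19.8 and 19.4 CPM untreated, with overlapping ranges. The fitted difference was log2 −0.24 ± 0.13 (adjusted p = 0.247). In control cells it had 15.6, 17.8 and 19.8 CPM with TGFβ1, against 28.0, 25.2 and 24.2 CPM untreated. These ranges did not overlap, and Marveld2 fell to 68.9% (log2 −0.54 ± 0.13, adjusted p = 0.0208). The control call was lost without untreated control replicate 1, 2 or 3 or TGFβ1-treated control replicate 1 or 2 (adjusted p = 0.0511 to 0.0785). The difference between the genotypes in this response did not pass (log2 0.30 ± 0.18, unadjusted p = 0.124).

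Lsr, which encodes the angulin that binds tricellulin at 3-cell corners, moved the other way. It had 262, 259 and 240 CPM in TGFβ1-treated KO cells, against 188, 198 and 196 CPM untreated. Control cells had 263, 314 and 284 CPM with TGFβ1, against 242, 235 and 228 CPM untreated. Treated and untreated libraries did not overlap in either genotype. Lsr rose to 130% in KO cells (log2 0.37 ± 0.08, adjusted p = 0.00829) and to 122% in control cells (log2 0.29 ± 0.08, adjusted p = 0.0364). The KO call was lost without TGFβ1-treated KO replicate 2 (adjusted p = 0.0573). The control call held in 13 of 23 settings. It was lost without untreated control replicate 1, 2 or 3, TGFβ1-treated control replicate 2, any of the 3 untreated KO libraries or TGFβ1-treated KO replicate 2 (adjusted p = 0.0578 to 0.216), with no filter on low counts (0.112) and in a fit of the 6 control libraries alone (0.114).

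F11r had 75.2, 80.4 and 53.5 CPM in TGFβ1-treated KO cells, against 45.5, 50.7 and 48.7 CPM untreated. The ranges did not overlap, though the treated replicate 3 was close to the untreated libraries, and F11r rose to 143% (log2 0.52 ± 0.15, adjusted p = 0.04). In control cells it had 81.6, 70.6 and 56.2 CPM with TGFβ1, against 55.3, 50.8 and 58.2 CPM untreated, with overlap through replicate 3 (log2 0.34 ± 0.15, adjusted p = 0.175). Without both replicate 3 libraries F11r passed in KO (log2 0.67, adjusted p = 0.000128) and in control cells (log2 0.46, adjusted p = 0.00295). The KO call held in 12 of 23 settings. It was lost on leaving out any 1 of the 3 untreated control libraries, any 1 of the 3 untreated KO libraries, TGFβ1-treated control replicate 2, or TGFβ1-treated KO replicate 1 or 2 (adjusted p = 0.0507 to 0.197), with limma-voom (0.055) and in a fit of the 6 KO libraries alone (0.0501).

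Tjp1, the ZO-1 scaffold, had 74.4, 66.7 and 64.7 CPM in TGFβ1-treated KO cells, against 68.3, 57.7 and 52.0 CPM untreated. In control cells it had 84.6, 75.3 and 66.5 CPM with TGFβ1, against 68.9, 55.3 and 56.2 CPM untreated. Ranges overlapped in both genotypes. The log2 difference was 0.20 ± 0.12 in KO (adjusted p = 0.317) and 0.33 ± 0.12 in control cells (adjusted p = 0.112). It passed in control cells without control TGFβ1 replicate 3 (log2 0.40, adjusted p = 0.0436), and also when replicate 3 of both treated groups was left out (adjusted p = 0.0254).

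Rab25 gave the largest difference in control cells of the 9 genes tested, from few counts (23 to 90 per library). It had 3.21, 4.18 and 2.68 CPM in TGFβ1-treated KO cells, against 5.24, 6.46 and 4.72 CPM untreated. In control cells it had 2.48, 2.89 and 2.74 CPM with TGFβ1, against 7.68, 8.29 and 7.34 CPM untreated. Neither genotype's groups overlapped. Rab25 fell to 34.9% in control cells (log2 −1.52 ± 0.18, adjusted p = 0.000377) and to 60.7% in KO cells (log2 −0.72 ± 0.18, adjusted p = 0.023). The control call held in all 22 settings that could test it. The KO call was lost without untreated KO replicate 1 or 2 or TGFβ1-treated KO replicate 1 (adjusted p = 0.054 to 0.0974) and in a fit of the 6 KO libraries alone (0.0652).

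**Figure D2:**
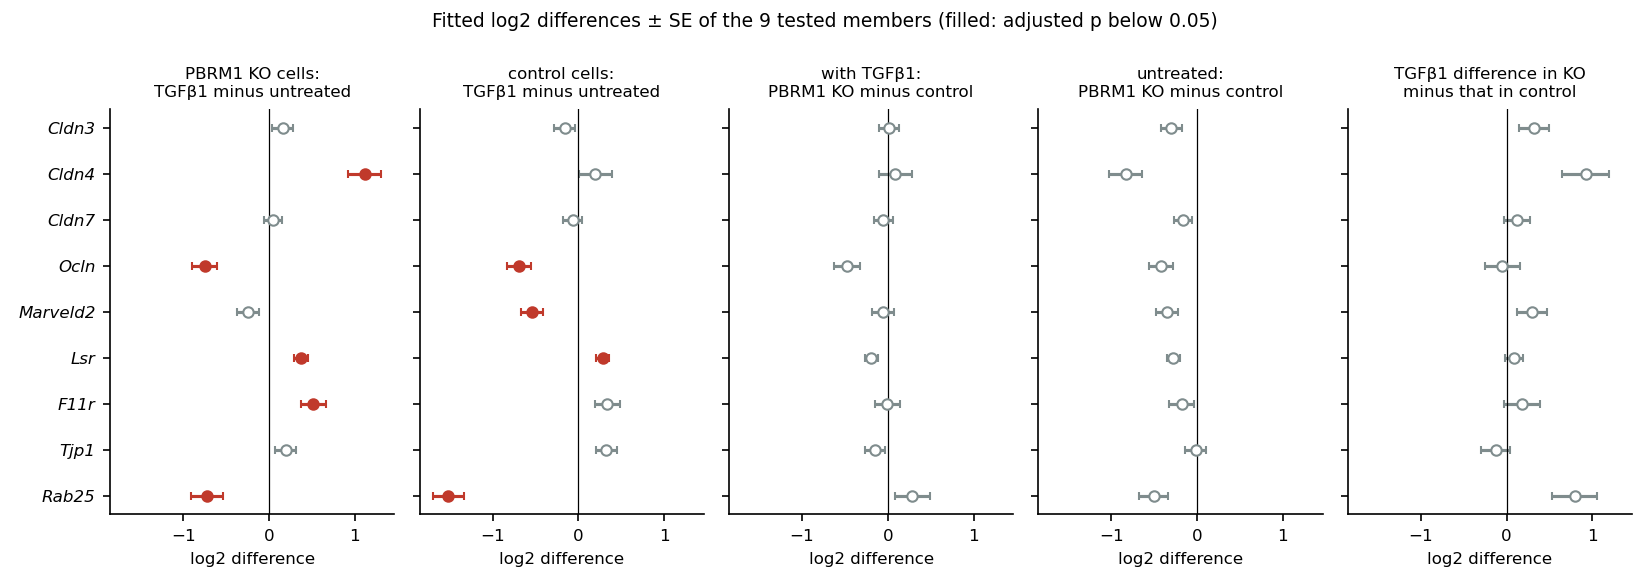
Fitted log2 differences with SE (horizontal axes) of the 9 tested genes in 5 comparisons, filled red where the adjusted p was below 0.05. Calls appear with TGFβ1 in PBRM1 KO cells (3 higher, 2 lower) and in control cells (1 higher, 3 lower), and in none of the other 3 panels.

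PBRM1 KO was then compared with control cells at each treatment. Without TGFβ1 the 9 tested genes were all fitted lower in KO cells, but none passed over all genes, where 0.278% of genes were called in either direction (39 of 14012). The median log2 difference of the 9 was −0.30, against −0.003 over all genes, of which 50.7% were below 0. The 6 lists of related genes described below had medians between −0.107 (transcription factors) and 0.026 (polarity genes). Other claudins were at 0.017, other junction membrane proteins at 0.011 and plaque proteins at −0.046. So the lower median belongs to the 9 genes and was not seen in these lists. At an unadjusted p below 0.05 in edgeR 6 of the 9 were lower (Cldn3, Cldn4, Ocln, Lsr, Marveld2 and Rab25), against 4.36% of all genes, and for 7 of the 9 the KO libraries all lay below the control libraries, against 8.71% of all genes. DESeq2 called 1 of the 9, Cldn4, against 0.757% of all genes (106 of 14011). The genes are a list picked with earlier results of these data known, so these shares are descriptions.

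Cldn4 was the furthest apart in this comparison, with the values given above for untreated cells: 229 to 291 CPM in KO and 404 to 510 CPM in control libraries. Its KO level was 56.1% of control (log2 −0.83 ± 0.19, unadjusted p = 0.000823, adjusted p = 0.12). It passed in 7 of 23 settings, among them DESeq2 (adjusted p = 0.00562), a fit of the 6 untreated libraries alone (0.00238), and fits without control TGFβ1 replicate 3 (0.0343), KO TGFβ1 replicate 3 (0.0258) or both (0.000351), in all of which the 6 untreated libraries were the same. Rab25 in untreated cells stood at 70.3% of control in KO cells (log2 −0.51 ± 0.17, adjusted p = 0.392), Ocln at 74.5% (log2 −0.42 ± 0.14, adjusted p = 0.392), Marveld2 at 78.4% (log2 −0.35 ± 0.12, adjusted p = 0.481), Cldn3 at 81.1% (log2 −0.30 ± 0.12, adjusted p = 0.548) and Lsr at 82.5% (log2 −0.28 ± 0.08, adjusted p = 0.239). The values of F11r, Cldn7 and Tjp1 were log2 −0.18 ± 0.15, −0.17 ± 0.11 and −0.02 ± 0.12, and Tjp1 was the one whose estimate changed sign in an alternative setting.

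With TGFβ1 none of the 9 was called between KO and control cells either, where 0.271% of all genes were called (38 of 14012, and 158 with the replicate block); at an unadjusted p below 0.05 there were 2, both lower in KO cells, against 4.44% of all genes: Ocln (log2 −0.47 ± 0.15, unadjusted p = 0.00678) and Lsr (log2 −0.19 ± 0.08, unadjusted p = 0.0273), and DESeq2 and limma-voom called 0. Cldn4 in treated cells averaged 554 ± 147 CPM in KO and 517 ± 124 CPM in control cells (SD, n = 3 each), log2 0.09 ± 0.19. Treated Rab25 averaged 3.36 ± 0.76 CPM in KO and 2.71 ± 0.21 CPM in control cells, log2 0.29 ± 0.20, with overlapping ranges. The remaining 5 genes had differences between log2 −0.15 and 0.01.

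The difference between the 2 TGFβ1 responses was tested as an interaction, in which 0% of all genes passed (0 of 14012; 247 at an unadjusted p below 0.05; DESeq2 and limma-voom also called 0). Cldn4 had an interaction of log2 0.92 ± 0.27 (unadjusted p = 0.00481, adjusted p = 1) and Rab25 of log2 0.80 ± 0.26 (unadjusted p = 0.00918, adjusted p = 1). In fitted values Cldn4 rose more with TGFβ1 in KO than in control cells. Rab25 fell in both, by less in KO (log2 −0.72) than in control cells (log2 −1.52). The other 7 had unadjusted p of 0.0866 or above. So the calls of Cldn4 and F11r in KO cells alone and of Marveld2 in control cells alone are not shown to differ between genotypes. The TGFβ1 and KO comparisons share libraries: untreated KO cells enter both the response in KO cells and the untreated genotype comparison, in which Cldn4 stood at log2 1.12 and −0.83.

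**Figure D3:**
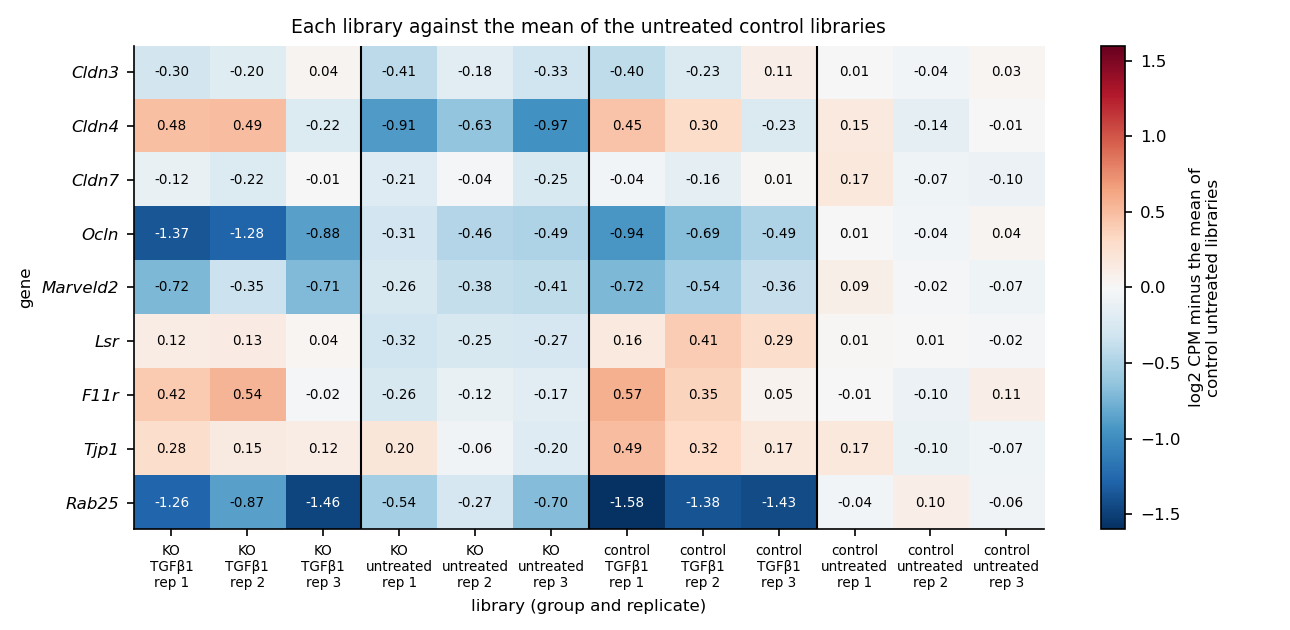
Heat map of log2 CPM of the 9 tested genes in each library minus the mean of the 3 untreated control libraries (red higher, blue lower; columns are libraries by group and replicate). Replicate 3 of both TGFβ1-treated groups shows Cldn4 at −0.22 in KO and −0.23 in control cells, below 0, while replicates 1 and 2 lie between 0.30 and 0.49.

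Ordered by mean CPM, the highest group was untreated control for Cldn3, Cldn7, Cldn1, Ocln, Marveld2 and Rab25, TGFβ1-treated control for Tjp1 and Lsr, and TGFβ1-treated KO for Cldn4 and F11r. Untreated KO cells were lowest for Cldn3, Cldn4, Cldn7, Tjp1, F11r and Lsr, and TGFβ1-treated KO cells for Cldn1, Ocln and Marveld2. For Rab25 the order from the lowest up was TGFβ1-treated control, TGFβ1-treated KO, untreated KO and untreated control, and of neighbours in this order the first 2 groups overlapped. For Ocln it was TGFβ1-treated KO, TGFβ1-treated control, untreated KO and untreated control, and again the first 2 groups overlapped. All neighbours in the order of Cldn3, Cldn7, Cldn1 and Tjp1 overlapped.

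Among 17 other claudins 4 could be tested. Cldn9 fell in both genotypes, to 2.82 ± 1.06 CPM with TGFβ1, against 8.39 ± 0.99 CPM untreated, in KO cells (SD, n = 3 each; log2 −1.57 ± 0.22, adjusted p = 0.000854) and with log2 −1.98 ± 0.25 in control cells (adjusted p = 0.000412). Cldn23, at a low level, was called higher in KO cells (log2 1.32 ± 0.35, adjusted p = 0.0304), with 2.92 ± 0.83 CPM with TGFβ1, against 1.15 ± 0.50 CPM untreated. Its values in control cells were similar, 2.99 ± 1.03 against 1.34 ± 0.20 CPM, but were not called (log2 1.14 ± 0.35, adjusted p = 0.0571). Of 8 other junction membrane proteins 2 were tested, and Marveld3, the third MARVEL protein of the junction, fell in KO (log2 −0.92 ± 0.27, adjusted p = 0.0448) and in control cells (log2 −1.39 ± 0.30, adjusted p = 0.0142), at 0.432 to 3.05 CPM over the 12 libraries.

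All 14 plaque proteins were tested. In KO cells 3 rose and 1 fell, where 7.65% of all tested genes were called higher and 3.72% lower. In control cells 2 rose and 2 fell, against 5.89% and 2.91% of all genes. The median of the 14 was log2 0.11 in KO and 0.07 in control cells. Cgn (cingulin), a plaque protein that links junctions to actomyosin, fell in both genotypes (log2 −0.46 ± 0.14, adjusted p = 0.0473 in KO; −0.62 ± 0.14, adjusted p = 0.0166 in control). Tjp3 (ZO-3) fell in control cells (log2 −1.32 ± 0.31, adjusted p = 0.0202) and was not called in KO cells (log2 −0.65 ± 0.42, adjusted p = 0.22). It had at most 1.93 CPM in any library. Magi1, a scaffold with PDZ domains, rose by log2 0.50 ± 0.11 in KO and 0.59 ± 0.11 in control cells (adjusted p = 0.0117 and 0.00646). Amotl2, a member of the angiomotin family, rose in KO (log2 0.94 ± 0.17, adjusted p = 0.00367) and in control cells (log2 1.16 ± 0.17, adjusted p = 0.00117). Amotl1 of the same family rose in KO cells (log2 0.95 ± 0.24, adjusted p = 0.0246) and was not called in control cells (log2 0.62 ± 0.24, adjusted p = 0.135).

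Of 14 polarity genes 13 were tested and 1 passed in each genotype. Of all tested genes 11.4% passed in KO and 8.81% in control cells, so this count does not set the list apart. Crb3, the apical Crumbs protein of epithelia, fell to 1.09 ± 0.30 CPM with TGFβ1, against 4.77 ± 0.54 CPM untreated, in KO cells (SD, n = 3 each; log2 −2.12 ± 0.28, adjusted p = 0.000609) and likewise in control cells (log2 −1.93 ± 0.25, adjusted p = 0.000601). All 12 genes of Rab11 family recycling, the pathway of Rab25, were tested. In KO cells 1 rose and 1 fell and in control cells 1 fell, against the same 11.4% and 8.81% of all genes. Rab11a, the ubiquitous relative of Rab25, was called higher in KO cells (log2 0.29 ± 0.08, adjusted p = 0.0355). Its estimate in control cells was close to that but not called (log2 0.27 ± 0.08, adjusted p = 0.0541). Ehd1, an ATPase of recycling endosomes, fell in both (log2 −0.38 ± 0.10, adjusted p = 0.0229 in KO; −0.41 ± 0.10, adjusted p = 0.0205 in control).

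Of 10 transcription factors known to act on junction genes 9 were tested, and in each genotype 2 rose and 1 fell. Of all tested genes 11.4% were called in KO and 8.81% in control cells. Snai1, a repressor of Ocln and claudins, rose by log2 1.12 ± 0.24 in KO (adjusted p = 0.00917) and 0.86 ± 0.23 in control cells (adjusted p = 0.0379). Zeb2 rose to 40.7 ± 2.6 CPM with TGFβ1, against 29.4 ± 1.8 CPM untreated, in KO cells (log2 0.46 ± 0.09, adjusted p = 0.00809), and to 43.7 ± 3.5, against 24.6 ± 1.1 CPM, in control cells (log2 0.83 ± 0.10, adjusted p = 0.000287). Ovol1, a factor that restrains mesenchymal genes in epithelia, fell to 2.34 ± 0.41 CPM with TGFβ1, against 5.12 ± 0.72 CPM untreated, in KO cells (log2 −1.13 ± 0.26, adjusted p = 0.0157), and to 1.94 to 4.35, against 6.15 to 8.48 CPM, in control cells (log2 −1.22 ± 0.25, adjusted p = 0.0102). In the KO to control comparisons and in the interaction 0 genes of these 6 lists passed in edgeR. Among the epithelial markers, Cdh1, the E-cadherin gene, fell with TGFβ1 in KO (log2 −0.59 ± 0.12, adjusted p = 0.00738) and in control cells (log2 −0.75 ± 0.12, adjusted p = 0.00222). Krt8 and Krt19 fell in both. Krt18 fell in control cells and was not called in KO cells (log2 −0.21 ± 0.09, adjusted p = 0.142). Epcam did not pass (adjusted p = 0.216 in KO and 0.944 in control cells).

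**Figure D4:**
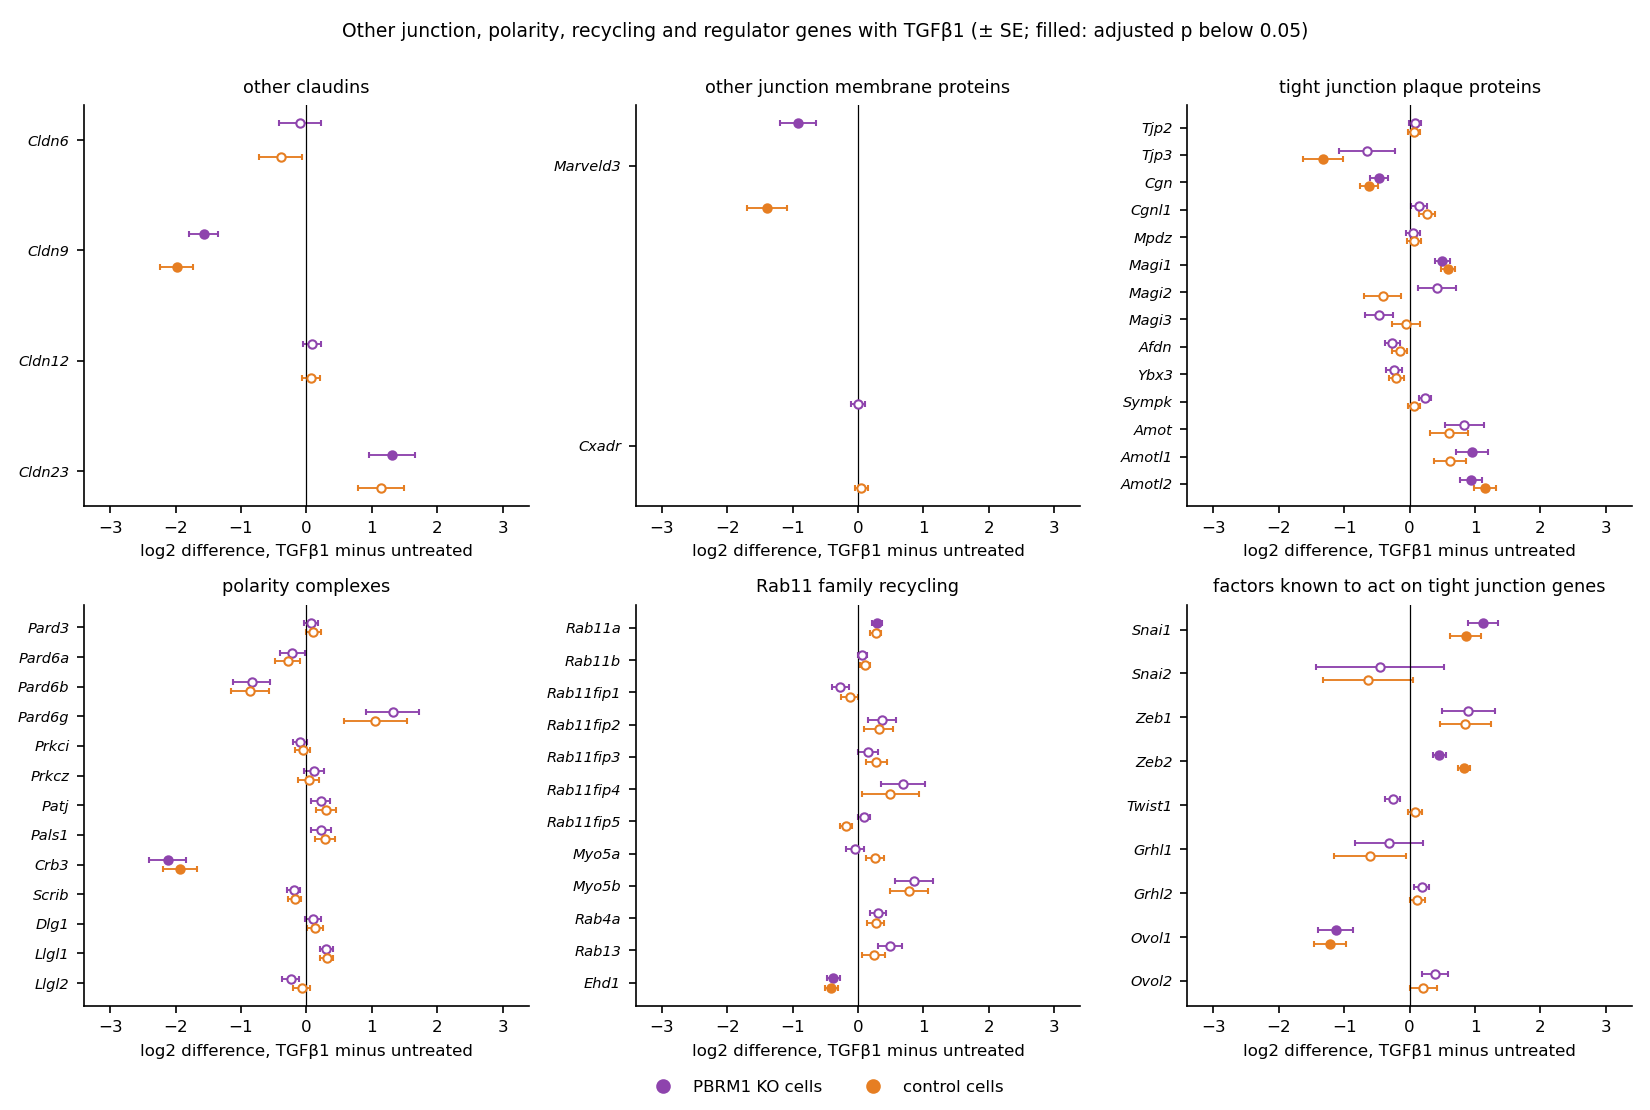
Log2 difference with TGFβ1 (horizontal axes, ± SE) of the tested genes of 6 lists, purple for PBRM1 KO and orange for control cells, filled where the adjusted p was below 0.05. Crb3, Cldn9, Ovol1 and Cgn lie left of 0 and Amotl2, Magi1, Snai1 and Zeb2 right of 0 in both genotypes.

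The tight junction genes that lie next to each other in the genome did not always move together. In the order of RefSeq genes Cldn3 and Cldn4 are neighbours, and so are Ocln and Marveld2. With TGFβ1 in KO cells Cldn4 rose and Cldn3 was at log2 0.16 ± 0.12. Over the 12 libraries Pearson's r of log2 CPM between Cldn3 and Cldn4 was 0.092. Ocln and Marveld2 went the same way more often, with r = 0.823. Within groups r was −0.694 for Cldn3 and Cldn4 and 0.262 for Ocln and Marveld2. Over the 12 libraries Cldn4 and F11r (r = 0.891) and Marveld2 and Rab25 (r = 0.879), which are not neighbours, had higher values. The other pairs of members had lower ones. Whether r depends on being neighbours was not tested. In KO cells Ocln fell and Marveld2 was at −0.24 ± 0.13, not called, and in control cells both fell. Differences between the genes of a pair were not tested. Of 16 nearest named genes on either side of the members, 11 were tested. With TGFβ1 1 rose and 0 fell in KO cells, where 11.4% of all tested genes were called. In control cells 1 rose and 1 fell, against 8.81% of all genes. Next to Rab25, which fell, Mex3a rose (log2 0.76 ± 0.15, adjusted p = 0.00665 in KO; 0.55 ± 0.15, adjusted p = 0.0381 in control) and Lamtor2 was at log2 0.13 ± 0.08 and 0.15 ± 0.08. Abhd11, next to Cldn3, fell in control cells (log2 −0.56 ± 0.16, adjusted p = 0.0475) and was not called in KO cells (log2 −0.31 ± 0.16, adjusted p = 0.24).

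Likeness of pattern was measured as Pearson's r of log2 CPM over the 12 libraries against 8604 other genes with at least 10 CPM on average. The libraries fall into groups, so high values are common, and no p is given. Closest to Cldn4 were Slc4a11 (r = 0.958), Sh3bp2 and Gucd1, and closest to F11r were Stard10 (r = 0.978), Fam110a and Dnpep. Lsr was closest to Npdc1 (r = 0.963), Slc39a4 and Stom, Ocln to Ormdl2 (r = 0.959), Gm10080 and Lipg, and Tjp1 to Mff (r = 0.96), Ptpn12 and Rab11b. For Rab25 the closest were Rnh1 (r = 0.918), Cic and Krt8, for Marveld2 Pcolce (r = 0.884), Stk11 and Sqle, for Cldn3 Oxa1l (r = 0.884), Gtdc1 and Slc12a9, and for Cldn7 Vcam1 (r = 0.807), Gars1 and Ubxn8.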

How the data were processed

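Per the labels' protocols, messenger RNA was primed with poly(dT), tagmented and sequenced single-end and stranded towards the 3′ end, and reads were deduplicated by UMI (unique molecular identifier). Per the submitters' processing notes, the tools were STAR 2.7.11, fastp 0.24.0, edgeR 3.38.4, featureCounts of Subread 2.1.1 and SAMtools 1.22.1, with the mm39 build. The authors deposited estimated counts, 91.84% of them whole numbers, and CPM for 12 libraries; the deposited CPM equal the counts scaled to the library total within 4.85e-06. Counts were fractional for Cldn4 in 10 libraries, F11r in 5, Ocln in 3, and Tjp1 and Lsr in 1 each.

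Counts were rounded to whole numbers, filtered with filterByExpr by group (14012 of 78317 genes kept; 92 spike-in rows without counts left out), scaled with TMM and fitted in edgeR 4.0.16 (R 4.3.3; quasi-likelihood, 1 mean per group, all 12 libraries), with Benjamini-Hochberg adjustment across all tested genes and a threshold of 0.05. Differences are log2 ± SE; levels are the deposited CPM, mean ± SD. Alternatives used DESeq2 1.42.0 and limma 3.58.1 (voom), other scalings, filters and rounding, fewer libraries and a replicate block. Scripts were tested on simulated data. Likeness used log2 CPM with a prior count of 2.

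Same-numbered replicates deviated together across the KO TGFβ1 response (r = 0.139 to 0.202) and the treated genotype comparison (r = 0.396 to 0.726), which the rule (every r over 0.1) takes as pairing; the block changed no call of a member in either, but raised the genes called with TGFβ1 in KO cells to 2780, against 1593, and between treated genotypes to 158, against 38. The members and lists were chosen with earlier results of these data known. Named genes are all members, per list up to 4 called genes in each direction by smallest p, the 3 most alike genes, nearest RefSeq neighbours, and Ccn2 and Cdh1; Pbrm1 and the markers serve as checks. All 10 symbols matched RefSeq promoters of GRCm38.p6.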

Additional observations from a re-analysis of the deposited data

How the results depend on the processing

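With TGFβ1 in control cells 4 members were called (8.81% of all genes), but 8 (23.9% of all genes) without both TGFβ1 replicate 3 libraries. When 1 library was left out, between 2 and 6 members were called (2.86% to 16.7% of all genes). In PBRM1 KO cells the count of members called was 5 (11.4% of all genes), but 3 (9.71%) in a fit of the 6 KO libraries alone. It was between 3 and 5 (4.28% to 21.3% of all genes) when 1 library was left out. For PBRM1 KO against control cells without TGFβ1 it was 0, but 1 (Cldn4) with no filter on low counts (adjusted p = 2.76e-11), with DESeq2, in a fit of the 6 untreated libraries, without both replicate 3 libraries and with the replicate block (0.00984), and between 0 and 1 when 1 library was left out. The interaction count was 0, but 1 (Cldn4) with no filter, and 0 in each fit that left out 1 library. With the replicate number as a block, 5 members were called with TGFβ1 in KO and 5 in control cells, where Tjp1 joined (log2 0.33, adjusted p = 0.00966). Between genotypes with TGFβ1 and in the interaction 0 were called. Under the rule of every r over 0.1, numbers were not taken as pairing in the control response (r = −0.084 to 0.258). The same held for the untreated genotype comparison (r = 0.069 to 0.149). There, however, each KO library matched best the control library of its own number, so pairing was not settled. Apart from Tjp1 and Cldn4, the block changed no member's call. Of 1021 values of single members under an alternative, 946 kept direction and side of the threshold, 31 lost a call, 15 gained one and 29 changed sign, none of those called. Without both replicate 3 libraries the sign changed for Cldn7 with TGFβ1 in KO cells (−0.005), and between treated genotypes for F11r (0.02) and Marveld2 (0.098). F11r was at 0.005 there with library-size scaling and with no filter, and Tjp1 between untreated genotypes at 0.002 with no filter. Leaving out 1 library gave, for values that changed sign, −0.025 to 0.109 (Cldn7, TGFβ1 in KO cells), −0.12 to 0.003 (Cldn7, TGFβ1 in control cells), −0.13 to 0.074 (Tjp1, untreated genotypes), −0.227 to 0.062 (Ocln, interaction), and between treated genotypes −0.091 to 0.17 (Cldn3), −0.088 to 0.285 (Cldn4), −0.107 to 0.005 (Cldn7), −0.13 to 0.143 (F11r) and −0.183 to 0.039 (Marveld2). The causes were not tested. The fit with no filter took the spread of every gene from the common trend (prior degrees of freedom infinite, against 5.32 with the filter), so its p-values carry no spread of Cldn4 itself. Of all genes, 1593 were called with TGFβ1 in KO cells (2413 with no filter, 3984 without both replicate 3 libraries, 613 to 3059 without 1 library) and 1234 in control cells (2115, 3414 and 408 to 2400; 2397 with the block). Between untreated genotypes 39 were called (278, 201 and 8 to 75; 106 with DESeq2, 144 with the block, 135 in the 6 libraries alone, 17 at 10 CPM or above), and between treated genotypes 38 (259, 76 and 3 to 61; 89 with DESeq2, 4 in the 6 libraries alone, 21 at 10 CPM or above). In the interaction 18 were called with no filter and 0 otherwise. At this depth Cldn1, with 2 to 12 counts per library, was below the filter.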
